A study of Homo sapiens with 8 samples.

Results

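Among the small open reading frames (smORFs) measured by ribosome profiling in Caco-2 cells, 108 of 24199 lay in the transcripts of genes for the mitochondrial oxidative phosphorylation machinery. They were chosen by host gene symbol alone: symbols that begin with NDUF, UQCR, ATP5 or SDH, or that combine COX with a number. A further 7 smORFs were left out because the matching symbol was a pseudogene or a divergent transcript. The 108 smORFs came from 43 host genes and fell into 62 clusters of overlapping smORFs on the same strand, and 69 of them overlapped at least 1 other smORF. ATP5MK held 13 of them, and COX14 and NDUFC1 held 8 each.

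In ribosome profiling (Ribo-Seq), the stretches of mRNA shielded by ribosomes from nuclease are sequenced. Caco-2, a human cell line from a colon cancer, becomes enterocyte-like in culture when it is allowed to differentiate. There were 8 libraries, 2 for each of 4 groups. One group was undifferentiated, and the others were differentiated and received no treatment (control), micelles without lipid, made with the bile salt taurocholate, or lipid micelles, which hold oleic acid, cholesterol and albumin. The labels name no genetic change and no batch, and do not say whether the 2 libraries of a group were separate cultures, so p-values measure only the spread between these libraries.

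Oxidative phosphorylation moves electrons from NADH and succinate to oxygen through complexes I, II, III and IV of the inner mitochondrial membrane, and complex V, the ATP synthase, uses the proton gradient that this builds to make ATP. Most subunits are encoded in the nucleus, translated in the cytosol and imported, and each complex needs assembly factors that are not part of the finished enzyme. A smORF in the 5′ untranslated region of an mRNA (uORF) lies ahead of the annotated coding sequence, where scanning ribosomes can meet it first, and one in the 3′ untranslated region (dORF) lies behind it. Absorptive enterocytes are rich in mitochondria, since nutrient transport uses ATP.

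The start sites below are first those of a selection of the smORFs called lower in control than in undifferentiated cells. Among them, COX4I1 IEC_09984 passed the low-count filter only through the undifferentiated libraries, so its call adds nothing. The others are the only smORF called higher in control cells, the COX14 smORF with the smallest p under lipid, and the complex IV smORFs with the highest levels. Each line is 30 bases of the hg38 plus or minus strand, 5′ to 3′ along the transcript, with the first codon of the deposited smORF in capitals, 12 bases before it and 15 after it.
ATP5MK IEC_16817: gtatgtccatagCTGtttgttcccaccgag
ATP5MK IEC_16815: taaactccgtgaATGcaagaggctgcttct
ATP5MK IEC_16816: taaaagggttagATTtcagtctatagacga
ATP5MK IEC_18131: ctcttccatttcATCaagacccagctgagt
ATP5MC1 IEC_04603: ctgtcaccttgaGCCgggcgagcgctgtgg
COX4I1 IEC_12890: gccaggcctaagATGcatcacacagatctg
COX4I1 IEC_09983: tcctagcgattaATGtcccaacaacgtgaa
COX4I1 IEC_09984: accaagtgaacgATGacttgtttctacaaa
UQCRC2 IEC_11291: agcagtagagcgCGGcagtatagagagtac
UQCRQ IEC_07770: gccggaaatgacGAAcgagtcaaccggatc
NDUFA4 IEC_15702: tgggtgactttgGAAgtccgtagtgtctca
ATP5PF IEC_14214: ttcagaataaacATGcatttcataactgtc
COX14 IEC_09583: ggcctcggttggATGcgaaggagctgcagc
COX6B1 IEC_11585: cttccggctggtAGTagttccgcttcctgt
COX7B IEC_03965: gtcaaatctcatTACggatcccggctgaaa
The 3 COX4I1 smORFs, the ATP5PF smORF and the COX14 smORF open with ATG, whereas those of UQCRC2, UQCRQ, NDUFA4, COX6B1 and COX7B open with codons that do not normally start translation.

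Many deposited frames did not begin at a start codon. ATG opened 35 of the 108 smORFs (32.4%), against 43.4% of all 24199. Another 17 opened with a codon that differs from ATG by 1 base, and 56 with some other codon. Of the 73 without ATG, 38 began directly after an in-frame stop codon, so that their deposited span opens where the previous frame ended. Among the 33 smORFs with ATG at the start and a printed-length window, 18 had A or G at the third base before it and 6 had G right after it.

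The members were short and lay in untranslated regions. Their median length was 18 amino acids, against 31 for all smORFs, and it ran from 6 to 101. In the deposited classes, 74 were uORFs, 27 were dORFs, 6 were non-coding and 1 was intragenic. The uORF share, 68.5%, was close to the 69.9% of all smORFs, and the dORF share was 25.0% against 6.60%. The non-coding share was 5.56% against 22.3%. The choice by symbols of protein-coding genes, without pseudogene and divergent transcript symbols, bears on all these shares. By GENCODE release 44, 63 lay wholly in an annotated 5′ untranslated region, 25 wholly in a 3′ untranslated region, and 0 overlapped annotated coding sequence. The authors had removed smORFs that overlap RefSeq coding regions, so the 0 was largely set by that filter. PhyloCSF, a score that is above 0 where codons change between species as protein-coding ones do, had a mean below 0 in all 108, where 1.75% of all smORFs were above 0. RibORF scores, which rate how far footprints follow the reading frame, had a median of 0.845 in members and 0.876 over all.

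Library totals ran from 506382 to 884711 smORF counts, and the members held 3521 to 7140 of them per library. The number of members with 10 counts or more was 60 to 78 per library, and 48 reached it in all 8. The filter on low counts passed 82 members from 36 host genes and 47 clusters. The other 26 never exceeded 14 counts in any library, and 1 of them, in NDUFV2, had 0 counts in all 8. Over the tested members, levels on the log scale correlated between the 2 libraries of a group at Pearson's r of 0.906 to 0.946, a description across 82 smORFs that share libraries and reads. The enterocyte markers held 0.153% and 0.194% of counts in undifferentiated libraries and 0.552% to 0.768% in the 6 differentiated ones, and the proliferation markers 0.776% and 0.820% against 0.0527% to 0.0705%. Fibroblast markers held 77 and 41 counts in undifferentiated libraries and 1 to 8 in the others, leukocyte markers 0 to 9, and goblet and endocrine cell markers 0.

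Levels between host genes are compared per length, as CPM (counts relative to a library's scaled total) per 100 nucleotides of smORF, averaged over the 8 libraries. In complex IV, the smORF IEC_11585 of COX6B1, a subunit on the intermembrane space side, stood at 790 CPM per 100 nt. The nested frames of COX7B, a small membrane subunit, ran from 499 to 782, and the frames of NDUFA4 reached 644. Among ATP synthase genes, ATP5MK IEC_14828 reached 691, ATP5PB IEC_07040, ahead of the gene of the peripheral stalk subunit b, 635, and the dORF IEC_13347 of ATP5F1E, which encodes the epsilon subunit, 536. By their highest frame per 100 nt, complexes III and I lay lower. This order depends on the frame taken. The best-covered smORFs of ATP5F1E and ATP5MK, IEC_13346 and IEC_16821, stood at 332 and 125, below the UQCRH and NDUFAB1 values that follow. UQCRH, the hinge protein of complex III, reached 400.3 and UQCR11 272, while NDUFAB1, the mitochondrial acyl carrier protein found in complex I, reached 440.2 and NDUFC2, an accessory membrane subunit, 276. Complex II was nearly empty: no SDHA, SDHB, SDHC or SDHD transcript held a member, and the assembly factor SDHAF2, which inserts FAD into SDHA, had 2 dORFs at 35.3 and 10.1 CPM per 100 nt.

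Together the members held a larger share of smORF counts in undifferentiated cells than in differentiated control cells. The share was 0.971% and 0.950% in the 2 undifferentiated libraries, 0.695% and 0.692% in control, 0.723% and 0.667% with micelles without lipid, and 0.860% and 0.807% with lipid micelles. The undifferentiated libraries stood above all differentiated ones, and the lipid libraries stood above the control and no-lipid libraries. The means were 0.960% ± 0.0143 (SD, n = 2), 0.694% ± 0.00202, 0.695% ± 0.0396 and 0.833% ± 0.0373 in that order. With 2 libraries a group the exact permutation test cannot go below 0.3333, and it gave two-sided exact p = 0.3333 for control against undifferentiated, for lipid against control and for lipid against no lipid. The order of undifferentiated, lipid and control was the same without COX7B, the host gene with the most counts (0.761%, 0.624% and 0.550% on average), and with 1 smORF per cluster in both the members and the total. A share of counts cannot tell a change in these transcripts' abundance from a change in ribosome load on them, nor, in bulk libraries, fewer cells of a kind from less RNA per cell.

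**Figure D1:**
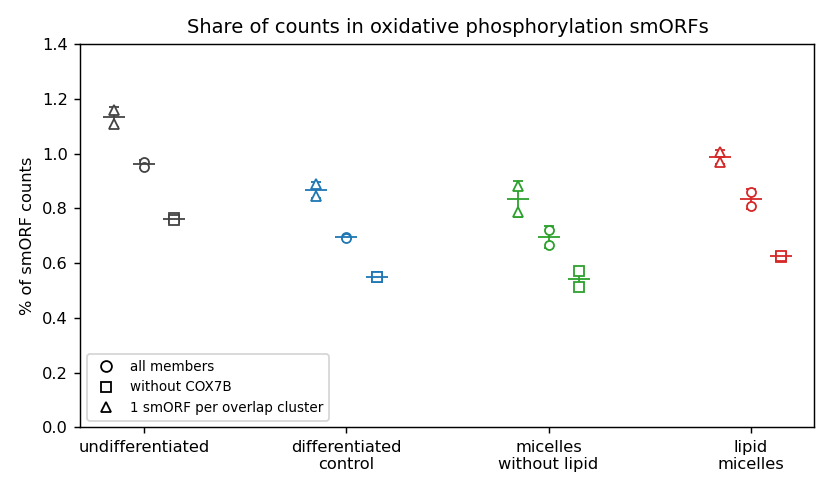
Percent of each library's smORF counts (vertical axis) held by the member smORFs, by group, as all members (circles), without COX7B (squares) and with 1 smORF per overlap cluster (triangles). Each point is a library and the bars show mean ± SD of 2. In all 3 versions both lipid libraries lie above both control libraries and below both undifferentiated ones.

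The first comparison asks how footprints on these transcripts differ once the cells have differentiated. Of the 82 members tested, 21 were lower in differentiated control than in undifferentiated cells and 1 was higher, at an adjusted p under 0.05 and a 2-fold change or more by edgeR's quasi-likelihood test. Over all 15182 smORFs tested, 15.6% were called lower and 17.7% higher, so members were lower in 25.6% and higher in 1.22%. These counts lean on smORFs with few reads in differentiated cells: 14 of the 21 had under 10 counts in some library. Of these, IEC_08263, IEC_02131, IEC_18132 and IEC_09984 passed the low-count filter only through the undifferentiated libraries, so their calls add nothing to the rest. Among the 48 members with 10 counts or more in every library 6 were lower, 12.5%, against 11% of the 6629 such smORFs, so at that coverage the share was near the background. The median log2 fold change of the tested members was -0.52, against 0.01 over all smORFs, and 54 of 82 were negative. With 10 counts in every library the medians were -0.39 and 0.02. The 21 lower smORFs came from 11 host genes and 12 clusters, and 11 of them from 3 genes, ATP5MK, COX4I1 and ATP5MC1. Counted as 1 best-covered smORF per host gene, 9 of 36 were lower, 25.0%, and 1 was higher. No share over all smORFs was taken at 1 per host gene. With 1 smORF per cluster, 11 of 47 members were lower, 23.4%, and 1 was higher, 2.13%. Of all 6657 smORFs tested under that setting, 15.7% were lower and 19.0% higher. The groups did not overlap in 62 of the 82 members, 75.6%, where 69.4% of all tested smORFs had no overlap, and in 47 of these the control libraries were the lower ones.

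All 21 lower smORFs were uORFs. Among uORFs, 21 of 62 members (33.9%) were lower and 0 were higher, against 18.8% and 10.9% of all 11112 uORFs tested, with medians of -0.65 and -0.21. Among dORFs, 0 of 19 members were lower and 1 was higher, against 2.73% and 36.4% of all 879 dORFs tested, with medians of 0.46 and 0.95. By deposited class, both a uORF and a dORF were tested in 7 host genes, and the best-covered dORF had the larger log2 fold change in 6 of them. One of the 6 is COX16, with 0.46 and 0.40. Its dORFs IEC_17549 and IEC_22962 have 0 bases in a COX16 3′ untranslated region and begin upstream of its uORFs. These 2 frames are dORFs by deposited class only, and the member dORF median of 0.46 includes them. Over all 157 host genes with both, the dORF had the larger one in 82.8%, so the members resemble the other genes in this. The widest gap was in UQCR11, a small complex III subunit, with a dORF at 0.93 and a uORF at -1.07, but neither differed from the rest of the gene after adjustment (adjusted p = 0.313 and 1.00 by the edgeR exon-usage test described below).

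**Figure D2:**
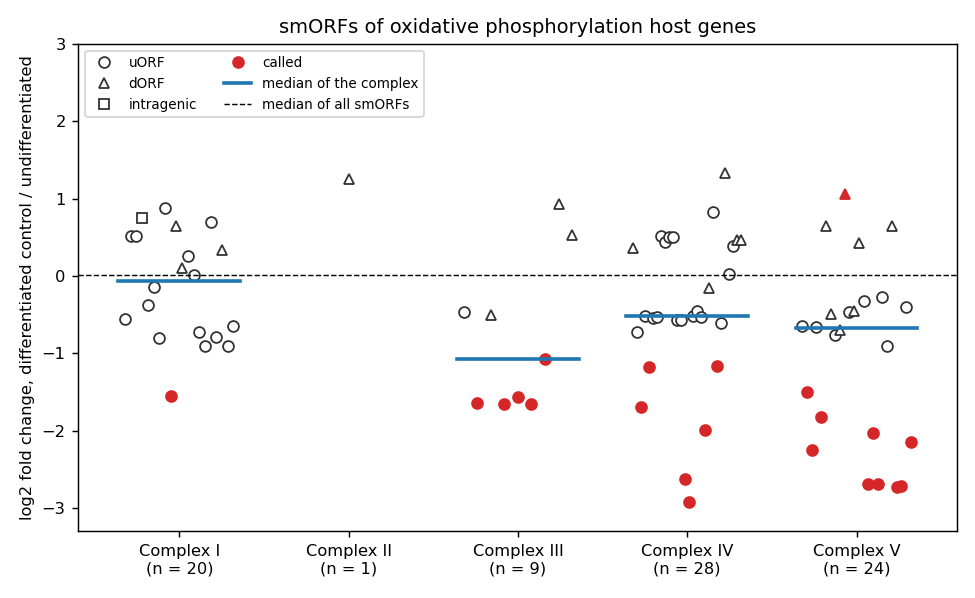
Log2 fold change of each tested member smORF between differentiated control and undifferentiated cells (vertical axis), by complex of the host gene. Red symbols passed the threshold, blue lines are medians of a complex, and the dashed line is the median of all smORFs tested, 0.01. In complexes III, IV and V the red symbols lie below the line except for 1 dORF of ATP5PF.

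Counted by frame, the ATP synthase genes gave the most calls, with 9 of 24 tested smORFs lower, 1 higher and a median of -0.68. The lower share was 37.5%, against 15.6% of all smORFs and 18.8% of all uORFs. These 9 were 5 frames of ATP5MK, some of them overlapping, 3 of ATP5MC1 and 1 under the symbol ATP5MF-PTCD1. In complex IV the lower calls were spread over COX4I1, NDUFA4, COX14 and COX20. ATP5MK encodes a small membrane subunit of the ATP synthase that helps to join its dimers. Its uORF IEC_16817 (chr10:103395862-103396032, minus strand, 5′ untranslated region) stood at 113 and 128 CPM in the undifferentiated libraries, 13.7 and 22.1 in control, 34.4 and 31.8 without lipid, and 26.7 and 19.8 with lipid. Both undifferentiated values lay more than 3 times above every differentiated one. It fell by 2.69 on the log2 scale (SE 0.353, edgeR adjusted p = 2.0e-05).

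The uORFs next to it in the same leader moved alike. IEC_16815, a 24-nucleotide frame that opens with ATG, stood at 88.0 and 72.9 CPM in undifferentiated and 7.82 and 15.6 in control libraries, and fell by 2.69 (SE 0.434). IEC_16816, which overlaps IEC_16817, went from 101 and 80.0 CPM to 11.7 and 29.9, and fell by 2.03 (SE 0.435). The 2 undifferentiated libraries were the highest of the 8 for each.

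Another pair of ATP5MK smORFs, IEC_18131 and IEC_18132, lay over the hairpin of the microRNA gene MIR1307, on the same strand. They overlapped in nearly all of their length and had nearly the same counts. IEC_18131 (chr10:103394296-103394400, minus strand) stood at 59.7 and 85.3 CPM in undifferentiated libraries, 5.87 and 14.3 in control, 16.3 and 37.3 without lipid, and 11.9 and 14.0 with lipid. It fell by 2.73 between undifferentiated and control cells (SE 0.479), and IEC_18132 fell by 2.71. IEC_18132 passed the low-count filter only through the undifferentiated libraries, so its call adds nothing to that of IEC_18131. All 105 bases of IEC_18131 lay within the annotated MIR1307 gene, and no annotated ATP5MK transcript held the whole frame. Both mature microRNAs lie inside both smORFs and are shown here for that reason, from RefSeq (GRCh38.p14), with the seed, bases 2 to 8, in capitals.
hsa-miR-1307-5p: uCGACCGGaccucgaccggcu
hsa-miR-1307-3p: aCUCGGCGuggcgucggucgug
They map to chr10:103394341-103394361 and chr10:103394301-103394322 on the minus strand. Counts over this stretch do not say from which RNA the fragments came.

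ATP5MK also held smORFs that did not pass the threshold. IEC_14828 and IEC_16820, which share a first exon, had log2 fold changes of -0.32 and -0.27. For IEC_14828 the levels were 295 and 239.9 CPM in undifferentiated and 192 and 235 in control libraries, which lay close without overlap. IEC_16821, spliced from this leader into MIR1307 with 95 of its 201 bases there, had -0.90 (adjusted p = 0.0159), under the fold threshold. A test chosen after these values were seen, edgeR's exon-usage test applied to smORFs, compared each smORF with the other smORFs of its host gene. By it 4 ATP5MK smORFs differed from the rest of the gene, IEC_16817, IEC_16815, IEC_18131 and IEC_18132, by -1.74, -1.74, -1.78 and -1.76 on the log2 scale (adjusted p = 0.0118, 0.0368, 0.0412 and 0.0447 by edgeR). They were the only 4 of the 64 members in this test to pass, and 1.34% of all 12935 smORFs in it passed. IEC_18132 has nearly the same counts as IEC_18131 and passed the low-count filter only through the undifferentiated libraries. It adds nothing to IEC_18131 here, so the 4 do not count as 4 separate results. None of the 4 passed when any 1 undifferentiated or control library was left out, and 1 or 2 passed when a micelle library was.

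**Figure D3:**
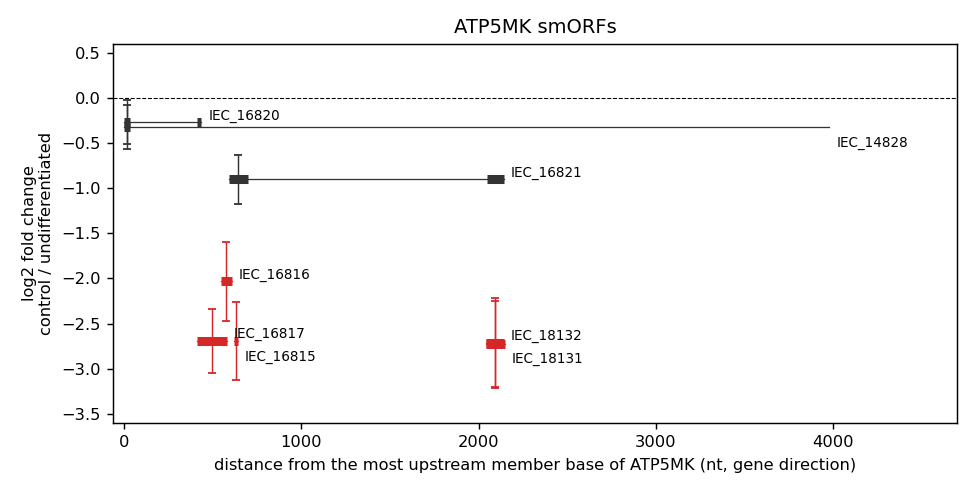
Tested smORFs of ATP5MK, drawn along the gene in nucleotides from the most upstream member base (horizontal axis) at their log2 fold change between differentiated control and undifferentiated cells (vertical axis). Thick bars are exons of a smORF, thin lines join them, red marks a call and error bars are 1 SE. The smORFs that share the first exon lie near 0, and those further along the leader and over the microRNA hairpin lie between -0.90 and -2.73.

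ATP5MC1 encodes the c subunit that forms the rotor ring. Its uORF IEC_04603 (chr17:48892859-48893410, plus strand, 2 exons) stood at 104 and 107 CPM in undifferentiated and 23.5 and 20.8 in control libraries, and fell by 2.25 (SE 0.350, edgeR adjusted p = 0.000108). IEC_04602, just upstream of it, fell by 1.49, from 70.7 and 72.9 to 19.5 and 29.9 CPM. In both, the no-lipid and lipid libraries lay between 12.4 and 30.3 CPM. The third call of the gene, IEC_08263, fell by 1.82 and was lost without any 1 of the undifferentiated or control libraries. It had 13 and 17 counts in undifferentiated and 3 and 6 in control libraries. Since IEC_08263 passed the low-count filter only through the undifferentiated libraries, its call adds nothing to those of the other frames. IEC_18573 was counted here by its read-through symbol ATP5MF-PTCD1 but lies in an exon of PTCD1, a regulator of mitochondrial RNA. It fell by 2.14 (SE 0.462), and without it 20 members were lower.

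The only higher call was a dORF of ATP5PF, which encodes coupling factor 6 of the peripheral stalk. IEC_14214 (chr21:25724521-25724565, minus strand, 3′ untranslated region) stood at 40.9 and 23.1 CPM in undifferentiated, 78.2 and 58.5 in control, 52.6 and 45.6 without lipid and 57.9 and 59.4 with lipid. It rose by 1.06 (SE 0.352, edgeR adjusted p = 0.0257). It no longer passed without undifferentiated replicate 2 (0.74), without control replicate 1 (0.90) or by DESeq2. The 2 dORFs of ATP5F1E, which overlap each other by part of their length, went in different directions without passing, at 0.65 for IEC_13346 and -0.49 for IEC_13347. The ATP5F1E uORF had -0.76 (adjusted p = 0.0320), again under the fold threshold.

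In complex IV, 6 of 28 tested smORFs were lower and 0 higher, with a median of -0.52. The lower share was 21.4%, against 15.6% of all smORFs and 18.8% of all uORFs. Of the 6, IEC_09984 and IEC_02131 passed the low-count filter only through the undifferentiated libraries. COX4I1 encodes the ubiquitous isoform of subunit IV, a nuclear-encoded subunit with a regulatory role. Its uORF IEC_12890 (chr16:85798547-85798648, plus strand) stood at 192 and 156 CPM in undifferentiated and 52.8 and 36.4 in control libraries, then 16.3 and 41.5 without lipid and 28.2 and 25.6 with lipid, and fell by 1.99 (SE 0.346, edgeR adjusted p = 0.000299). Only 16 of its 102 bases lay in an annotated COX4I1 exon, and no annotated COX4I1 transcript held the whole frame. IEC_09983, further downstream, fell by 2.62 (SE 0.452), from 75.4 and 144 CPM to 9.77 and 23.4. IEC_09984 begins at the last base of IEC_09983, whose stop codon is TGA, and had 20 and 17 counts in undifferentiated and 2 and 3 in control libraries. It passed the low-count filter only through the undifferentiated libraries, so its call adds nothing to that of the other frames. All 3 open with ATG, and for each the undifferentiated libraries were the highest of the 8.

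NDUFA4, first described with complex I and now counted as a complex IV subunit, held the uORF IEC_15702 (chr7:10940102-10940152, minus strand). It stood at 329 and 370 CPM in undifferentiated and 164 and 147 in control libraries, and fell by 1.17 (SE 0.250, edgeR adjusted p = 0.00168). The most abundant complex IV smORFs did not pass. COX6B1 IEC_11585 stood at 833 and 622 CPM in undifferentiated and 586 and 483 in control libraries (log2 fold change -0.45, adjusted p = 0.189 by edgeR). COX7B IEC_03965 stood at 578 and 519 against 375 and 381 CPM (-0.54, adjusted p = 0.0873). COX6C, which lies opposite an exon of another gene, had 0.83 with an adjusted p of 0.0270, under the fold threshold.

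Complex III had 5 lower calls among 9 tested smORFs and a median of -1.07. The lower share was 55.6%, against 15.6% of all smORFs and 18.8% of all uORFs. These were 2 overlapping frames of UQCRC2, 2 overlapping frames of UQCRQ and 1 of UQCR11, so they do not count as 5 separate results. UQCRC2 encodes core protein 2. Its uORF IEC_11291 (chr16:21953289-21953384, plus strand) stood at 102 and 112 CPM in undifferentiated and 37.1 and 31.2 in control libraries, and fell by 1.65 (SE 0.329, edgeR adjusted p = 0.000944). IEC_09998 lies within it, shares nearly all its reads and fell by 1.57. UQCRQ, a small subunit near cytochrome b, held IEC_07770, which lies opposite an exon of GDF9. It stood at 139.9 and 236 CPM in undifferentiated and 80.2 and 41.6 in control libraries and fell by 1.66 (SE 0.381), but did not pass without undifferentiated replicate 2 or control replicate 2 (edgeR adjusted p = 0.0536 and 0.0581). UQCR11 IEC_22385 fell by 1.07, and without control replicate 1 its value was -0.57 (edgeR adjusted p = 0.236). That smORF also lost the call without either undifferentiated replicate (-1.09 and -1.03), and passed in 9 of 16 alternative fits. By DESeq2 it did not pass (adjusted p = 0.0576). It fell under the fold threshold with upper quartile scaling (-0.94), the 2 groups alone (-0.999) and 10 counts in every library (-0.988).

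**Figure D4:**
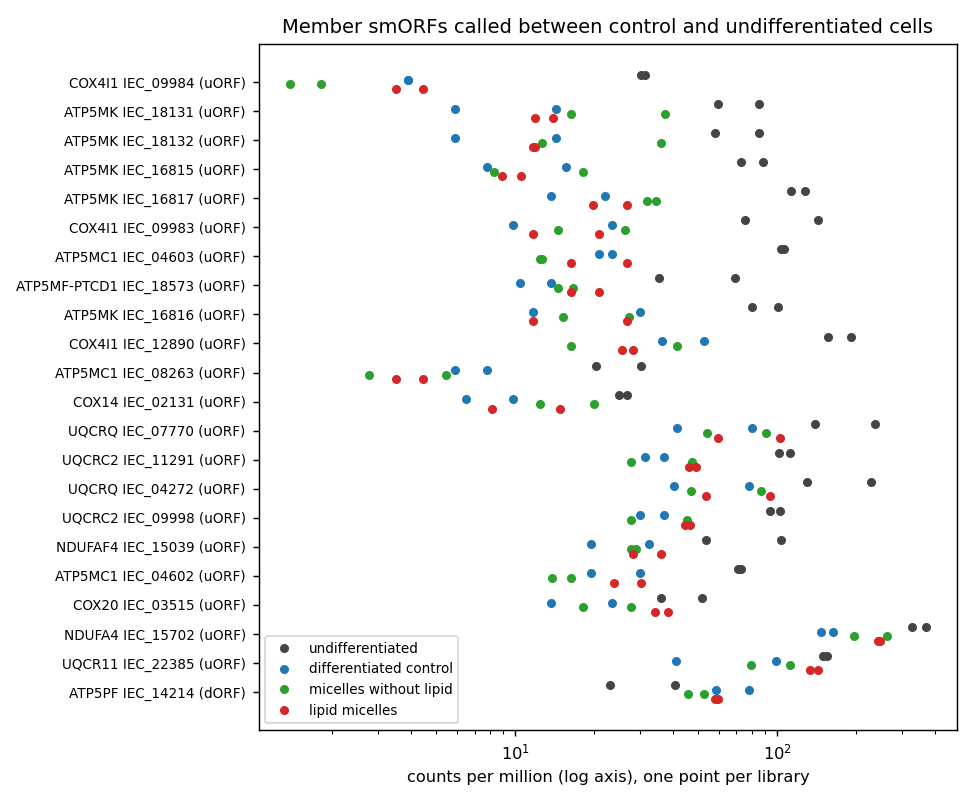
CPM per library (horizontal log axis) of the 22 member smORFs called between differentiated control and undifferentiated cells, sorted by fold change, with 2 points for each of the 4 groups. For the 21 uORFs both undifferentiated points lie to the right of both control points, and for the ATP5PF dORF they lie to the left.

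Complex I differed less: 1 of 20 tested smORFs was lower and 0 were higher, with a median of -0.07. The lower share was 5.0%, against 15.6% of all smORFs and 18.8% of all uORFs. The 1 call was in an assembly factor, NDUFAF4. Its uORF IEC_15039 stood at 104 and 53.3 CPM in undifferentiated and 19.5 and 32.5 in control libraries and fell by 1.55 (SE 0.391, edgeR adjusted p = 0.00526). It lost the call without undifferentiated replicate 1 (-0.98) or control replicate 1 (-1.23). The 2 best-covered complex I subunit smORFs, in NDUFS8 and NDUFAB1, had -0.55 and -0.37 (edgeR adjusted p = 0.117 and 0.329). NDUFC2 had -0.80 with an adjusted p of 0.0376, under the fold threshold.

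Among assembly factors 3 of 21 tested smORFs were lower, 14.3%, near the 15.6% of all smORFs. Of the 21, 15 were frames of COX14, COX16 and NDUFAF3, most of them overlapping. With the best-covered smORF of each of the 9 host genes, counted this way after the values were seen, 2 were lower and the median was -0.15. The uORF of COX20, a chaperone for subunit COX2, fell by 1.18, from 36.1 and 51.5 CPM to 13.7 and 23.4 (edgeR adjusted p = 0.0348). It passed in 7 of 15 alternative fits, and was lost, among others, without either control library, without undifferentiated replicate 2 and without either lipid library. COX14, an early complex IV assembly factor, had a lower call for IEC_02131 (-1.69, from 26.7 and 24.9 CPM to 9.77 and 6.50), which was lost without any 1 of the undifferentiated or control libraries. IEC_02131 passed the low-count filter only through the undifferentiated libraries, so its call is no support for a difference. The best-covered COX14 uORF, IEC_02132, had -0.51 (edgeR adjusted p = 0.153), and the 4 nested uORFs just upstream of it had 0.44 to 0.51. COX16, NDUFAF3, COX10, COX17, COX19 and SDHAF2 had values of 0.40, 0.52, -0.73, -0.15, 1.33 and 1.26 and none passed (smallest edgeR adjusted p = 0.0771). The NDUFAF3 frames overlap one another and 2 of them had identical counts in all 8 libraries.

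Lists of other genes give the surroundings of these values. In a list of other respiratory chain genes, assembly factors and carriers outside the members, 13 of 43 tested smORFs were higher and 11 lower (median 0.39). They included higher uORFs of COA1, an assembly factor (2.22 and 2.64), and a lower one of TMEM70, which the ATP synthase needs for assembly (-1.68). In mitochondrial ribosomal protein genes 6 of 68 were higher and 17 lower (median -0.39), and in cytosolic ribosomal protein genes 8 of 122 were higher and 29 lower (median -0.45). Regulators of mitochondrial gene expression had 0 higher and 4 lower of 19 (median -0.62), with GABPA at -1.35. Among citric acid cycle genes 2 of 4 were higher, both in SUCLA2, and 0 lower. In glycolysis 9 of 15 were higher and 2 lower. For enterocyte markers 16 of 19 were higher and 1 lower, and for proliferation markers 0 of 27 were higher and 26 lower. The part of cell division in the values of the 21 lower members was not tested.

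The other comparisons ask what the micelles change in differentiated cells. No member was called between micelles without lipid and control, lipid micelles and control, or lipid micelles and micelles without lipid, and 0% of all 15182 smORFs were called in each by edgeR's quasi-likelihood test. At an unadjusted p under 0.05 there were 3, 16 and 9 members of 82 in the 3 comparisons, against 4.08%, 4.66% and 4.11% of all smORFs, and DESeq2 gave 0, 11 and 5 of 108 members and 207, 224 and 181 of all 24199 smORFs. DESeq2 called no member either, and 2, 0 and 0 of all smORFs. With the replicate number as a block, since the differentiated groups were taken as paired, edgeR again called no member, and 15, 0 and 3 of all 15182 smORFs. The medians of the tested members were 0.04, 0.06 and 0.15. The comparisons share libraries, so their values are not independent of one another.

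The 16 smORFs with a small p under lipid micelles against control came from 8 host genes and 10 clusters, 13 of them higher and 3 lower. All 13 higher ones were uORFs and the 3 lower ones were dORFs. Over all smORFs with an unadjusted edgeR p under 0.05, uORFs and dORFs leaned the same ways, with 314 uORFs higher and 224 lower, and 9 dORFs higher and 30 lower. The 16 members do not count as 16 separate readings, since 4 were nested COX7B frames, 3 were COX14 frames with the same first exon and 2 were nested NDUFA4 frames. Without control replicate 1 the number was 7 of 88, without control replicate 2 it was 10 of 85, and without lipid replicate 1 or 2 it was 9 of 87 and 11 of 88. None was called in any of these fits.

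The smallest p belonged to COX14. IEC_09583 (chr12:50112278-50123366, plus strand, 2 exons) stood at 76.2 and 128 CPM in control, 145 and 158 without lipid, and 251 and 246 with lipid, beside 160 and 146 in undifferentiated cells. Both lipid libraries were the highest of the 8. The log2 difference between lipid and control was 1.26 (SE 0.273, edgeR adjusted p = 0.796, unadjusted 0.000215), and between lipid and no lipid 0.71 (edgeR adjusted p = 0.999). IEC_09527 and IEC_02132 start at the same ATG and differ from it only after the first exon, with 1.26 and 1.20. The overlapping frames just upstream of that ATG, such as IEC_09444 (106 and 81.9 CPM in control, 93.6 and 85.0 with lipid), had values of -0.11 to 0.14. These frames also overlap another annotated gene on the same strand. Against the rest of the gene no COX14 smORF passed (adjusted p = 1.00 by edgeR).

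NDUFA8, an accessory subunit of complex I, had a uORF and a dORF that differed in sign. The uORF IEC_17082 (chr9:122159714-122159779, minus strand, ATG start) stood at 35.2 and 31.2 CPM in control, 32.6 and 29.0 without lipid, and 75.8 and 51.2 with lipid. Both lipid libraries lay above the other 6. Its log2 difference was 0.93 from control and 1.03 from no lipid (edgeR adjusted p = 0.957 and 0.999, unadjusted 0.0142 and 0.00788). The dORF IEC_17080 stood at 78.2 and 117 CPM in control, 83.4 and 66.4 without lipid and 53.5 and 41.9 with lipid, a difference of -1.06 from control (edgeR adjusted p = 0.957, unadjusted 0.00313). Against the rest of the gene the uORF differed by 1.25 (edgeR adjusted p = 1.00, unadjusted 0.00141).

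In ATP5F1E the uORF IEC_13348 stood at 109 and 127 CPM in control, 112 and 119 without lipid, and 202 and 206 with lipid, a difference of 0.78 from control and 0.82 from no lipid (edgeR adjusted p = 0.957 and 0.999). The 2 lipid libraries lay within the range of the undifferentiated ones, 167 and 234. Its 2 overlapping dORFs were not alike. IEC_13347 had -0.56 against control, and the better-covered IEC_13346 had -0.20, at 262 and 377 CPM in control and 281 and 278 with lipid, with overlap. COX7B IEC_03965 stood at 375 and 381 CPM in control and 640.4 and 493 with lipid, a difference of 0.58. Its no-lipid libraries, at 413 and 433, lay between them.

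**Figure D5:**
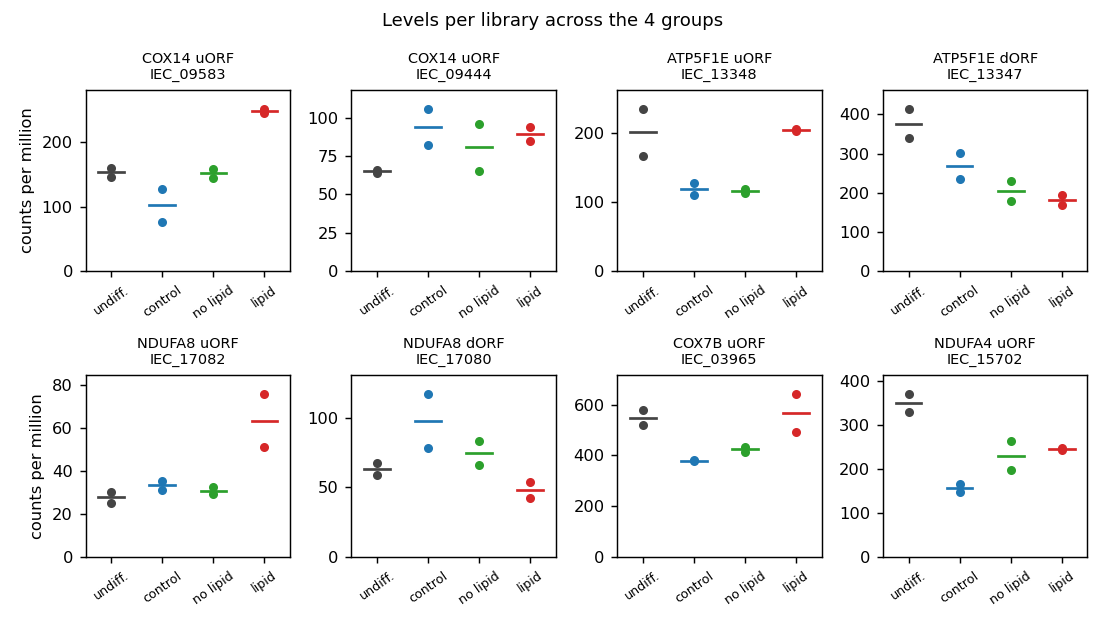
CPM in each library (vertical axis from 0) for 8 smORFs of COX14, ATP5F1E, NDUFA8, COX7B and NDUFA4 in the 4 groups, with 2 points and a mean line per group. The COX14 uORF IEC_09583 and the uORFs of ATP5F1E and NDUFA8 have both lipid points above both control and both no-lipid points, and the dORFs IEC_13347 of ATP5F1E and IEC_17080 of NDUFA8 have them below both control points. No difference between the differentiated groups passed adjustment.

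With micelles without lipid the smallest p-values were in the ATP5MK frames over MIR1307 and in NDUFA4. IEC_18131 had a log2 difference of 1.35 and IEC_18132 of 1.22 from control (edgeR adjusted p = 1.00, unadjusted 0.0208 and 0.0429), with 1 no-lipid library at 37.3 CPM for IEC_18131 and the other at 16.3, close to the 14.3 of a control library. NDUFA4 IEC_15702 had 0.56, from 164 and 147 CPM in control to 263 and 196, without overlap (edgeR adjusted p = 1.00, unadjusted 0.0394).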

How the data were processed

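Ribo-Seq libraries of Caco-2 cells (4 groups of 2) were analysed from the deposited tables. The authors aligned reads to hg38 with STAR (2.7.11a in the submitters' processing notes), built a transcriptome from RNA-seq with StringTie, took its 3 forward frames, and scored them with RibORF; the deposited smORFs hold up to 150 amino acids. They deposited raw counts per smORF and library from HOMER, without normalization. Strand, exon and multi-mapping options are not given in the sources used here, so overlapping, antisense and multi-copy regions are uncertain, and a read in several overlapping smORFs adds to each. The deposited score columns hold the authors' RibORF and PhyloCSF values. All per-library count columns were used, and totals are of smORF counts, 506382 to 884711 per library, so they limit precision beside the replicate spread.

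The members and the gene lists were chosen with earlier results of these data known. All 108 member sequences matched hg38. Annotation was GENCODE release 44. smORFs were filtered with filterByExpr, scaled by TMM and tested with edgeR 4.0.16 in R 4.3.3 (quasi-likelihood, a term per group, 8 libraries), two-sided, with Benjamini-Hochberg adjustment over all 15182 smORFs tested. Calls were made at adjusted p below 0.05 with a change of 1 or more on the log2 scale. SE was derived from the F statistic, and CPM are relative to TMM-scaled totals. The comparison of a smORF with its host gene used diffSpliceDGE and was added after the data were seen. The code was tested on simulated counts.

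Named smORFs are, per comparison, the called members (at most 15 in each direction by adjusted p), for each complex the 2 host genes with the best-covered smORF of highest CPM, the 3 members of smallest p per micelle comparison, and tested assembly factors. Others, among them the uncalled smORFs of ATP5MK, COX14, COX6C, COX7B, NDUFC2 and ATP5F1E and the second smORFs of called genes, were chosen after their values were seen. Alternatives were DESeq2 1.42.0 and its size factors, upper quartile scaling, other filters, the 2 groups alone, a replicate block, 1 smORF per cluster or host gene, and each library left out.

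Replicate numbers are shared by all groups. Deviations from group means correlated between equal numbers at 0.182, 0.113 and 0.101 among the 3 differentiated groups, which were therefore taken as paired by number, and at -0.0575 to 0.0179 with undifferentiated cells. The labels do not say what a number marks.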

Additional observations from a re-analysis of the deposited data

How the results depend on the processing

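The count of members lower in control than in undifferentiated cells, 21, stayed between 16 and 22 with any 1 library left out and within 1.5 times under DESeq2, both other scalings, no filter and the 2 groups alone. It was 6 when every library had to hold 10 counts (12.5% of 48 members, against 11% of all smORFs under the same filter, where the main shares were 25.6% and 15.6%). It was 11 with 1 smORF per cluster and 9 with 1 per host gene, where fewer smORFs entered. The 11 were 23.4% of 47 members, against 15.7% of all smORFs with 1 per cluster. The single higher call became 2 without the low-count filter, 0 by DESeq2 and 0 to 3 with a library left out. The median of -0.52 was -0.38 under upper quartile scaling, which moved the median of all smORFs from 0.01 to 0.15, so members lay -0.53 from all smORFs under both. It was -0.39 with 10 counts in every library and -0.51 to -0.43 with a library left out.

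In the micelle comparisons no member was called under any alternative run. The median for no lipid against control was 0.11 with 10 counts in every library, -0.053 with 1 smORF per cluster and -0.11 to 0.043 with a library left out. For lipid against control these were 0.26 with 10 counts in every library, 0.011 by DESeq2 and 0.030 to 0.17, and for lipid against no lipid 0.052 by DESeq2 and 0.060 to 0.23. The cause of these shifts was not tested. The mean share of counts was 1.13%, 0.867%, 0.833% and 0.986% with 1 smORF per cluster, and 0.761%, 0.550%, 0.541% and 0.624% without COX7B, for undifferentiated, control, no lipid and lipid. The ATP5MK smORFs that differed from the rest of the gene numbered 4, and 0 to 2 with a library left out. Of these 4, IEC_18132 has nearly the same counts as IEC_18131 and adds nothing to it. With the replicate block on 8 libraries the same 22 members were called, 21 lower and 1 higher, with a median of -0.52, and pairing changed no member's call in the micelle comparisons, also in the 6 differentiated libraries alone. Over all smORFs, where the fit without the block called 0, the block gave 15, 0 and 3 calls with 8 libraries, and with 6 gave 15 and 1 for no lipid and lipid against control and 4 higher and 10 lower for lipid against no lipid. Low counts limit the 26 members that were not tested.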
